A study of Mus musculus with 16 samples.

Results

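The nuclear genome encodes most subunits of the mitochondrial respiratory chain, and 73 such genes were followed here in terminal ileum from mice with and without Tas1r3. The genes were taken by name from the 23299 genes quantified: Ndufa, Ndufb, Ndufc, Ndufs and Ndufv genes for complex I, the Sdha, Sdhb, Sdhc and Sdhd genes for complex II, Uqcr genes for complex III, and Cox4i, Cox5, Cox6, Cox7 and Cox8 genes for complex IV. The names gave 41 genes of complex I, 4 of complex II, 8 of complex III and 16 of complex IV, and the prefix Sdha also took in Sdhaf1, Sdhaf2, Sdhaf3 and Sdhaf4, which are assembly factors of complex II and not subunits. All 73 genes passed the filter on low values (2 or more libraries with an RPKM of 1 or above), as did 19042 genes in all. The isoform genes Cox6a2, Cox7b2 and Cox8c were not analysed here.

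The mice were C57BL/6 wild-type littermates or carriers of the Tas1r3 null allele on both chromosomes in the whole body, backcrossed to C57BL/6 and 5 to 6 weeks old when assigned to a diet. They received either a normal diet (ND) with plain water or a Western diet (WD), which was a 60% high-fat diet with a 30% sucrose solution to drink, for 10 weeks. The 4 groups are called WT-ND, KO-ND, WT-WD and KO-WD below, and each had 2 males and 2 females by its labels. Both female columns of KO-ND equalled weighted means of the male columns at every transcript of the 73 genes, so that group was 2 males only, and the KO-WD female columns, alike at r = 0.98 over 59258 transcripts against 0.84 to 0.92 for the other pairs within a group, were averaged into 1 library. The 13 libraries were therefore 4 WT-ND, 2 KO-ND, 4 WT-WD and 3 KO-WD, which are listed throughout in the order male 1, male 2, female 1, female 2, then KO-ND male 1 and male 2, and KO-WD male 1, male 2 and female. Nothing ties a library to a separate cage or batch, so the p-values measure the spread between these libraries alone.

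Tas1r3, the sweet and umami taste receptor subunit removed in the knockout, had an RPKM of 1.80 to 6.27 in the 8 Tas1r3+/+ libraries and of 0.000726 to 0.00452 in the 5 Tas1r3-/- libraries. RPKM is the number of reads divided by transcript length and by library size, and on a transcript of 1 kb a single read was worth 0.0692 to 0.139 RPKM, from 7003257 to 12384240 reads per library. The RPKM of all genes summed to 817011 to 819916 in the ND libraries and to 542371 to 672933 in the WD libraries, with no overlap. Diet and whatever made these totals differ cannot be told apart in these libraries, and the source of the difference was not tested. Levels below are scaled RPKM, the RPKM divided by 1 factor per library. Differences are on the scale log2(scaled RPKM + 0.5), with their standard error from limma. The ileal enterocyte genes Fabp6 and Slc10a2, which bind and take up bile acids, averaged 1509 to 3538 and 45.9 to 105 scaled RPKM over the groups, whereas the lactase gene Lct averaged 0.0963 to 0.582. The whole tissue was sequenced, and fewer cells of a type and less RNA per cell cannot be told apart in it. WT-WD female 2 stood apart: it held the highest value of the 13 libraries for 47 of the 73 genes, and its 73 genes summed to 15328 scaled RPKM, against 7417, 7417 and 8327 in the other WT-WD libraries. The summed level of 12 enterocyte markers was also highest there, at 25986 scaled RPKM against 1958 to 17016 in the other 12 libraries, and the part of cell composition in the results was not tested. Median differences of the 73 genes that involve WT-WD are given with and without that library, except in the comparison of the sexes.

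The respiratory chain moves electrons from NADH, through complex I, and from succinate, through complex II, to ubiquinone, then through complex III and cytochrome c to oxygen at complex IV. Complexes I, III and IV pump protons across the inner mitochondrial membrane, and ATP synthase uses the return of those protons to make ATP. The redox work is done by a small set of core subunits, some of them encoded by mitochondrial DNA, and the remaining nuclear subunits build, stabilize and tune the complexes. Ileal enterocytes rely on this machinery for nutrient and bile acid uptake and for the handling of absorbed fat.

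The 73 genes summed to 9074 ± 845 scaled RPKM (SD, n = 4) in WT-ND, 9910 ± 872 (n = 2) in KO-ND, 9622 ± 3828 (n = 4) in WT-WD and 9248 ± 2052 (n = 3) in KO-WD. Their share of all RPKM in a library was between 1.02% and 1.78%. Complex IV held the largest sum in each group, from 3667 to 4086, and complex I followed with 3092 to 3586. Complex III summed to 1558 to 1744 and complex II to 424.8 to 503.4. The group means of these sums differed by less than the spread between the WT-WD libraries.

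Because RPKM is set per length, levels can be compared between genes, as sums over all annotated forms of a gene. Protein-coding forms held a mean of 56.3% (WT-ND) to 59.1% (KO-WD) of the RPKM of the 73 genes. The ranking is thus not one of protein-coding mRNA, and much of Cox6a1 was a form that keeps an intron, as given below. Cox4i1, the regulatory subunit that opens complex IV assembly, was the highest of all 73 genes with a mean of 892 scaled RPKM over the groups, followed by Cox6a1 (580) and Cox6b1 (537). Within complex I the highest was the membrane arm subunit Ndufb8 (273), close to Ndufb10 (270). Uqcr10 led complex III (328), with the Rieske iron-sulfur protein Uqcrfs1 lowest there (99.6), and complex II ran from Sdha, its flavoprotein (134), to the membrane anchor Sdhd (107).

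For each pair of isoforms, the form known from most tissues was the abundant one. Cox4i2, the isoform known from lung and induced by hypoxia, averaged 2.17 scaled RPKM, and Cox6b2, the testis isoform, averaged 12.7. Cox8b, known from muscle and brown fat, averaged 2.41 against 467 for Cox8a, and Ndufa4l2, induced by hypoxia, averaged 1.84 against 141 for Ndufa4, a subunit named for complex I that is now placed in complex IV. Cox7a1, the heart and skeletal muscle isoform, averaged 20.6, below Cox7a2 (114) and the supercomplex factor Cox7a2l (82.8). Cox7a1 ran from 8.82 in KO-WD male 1 to 76.3 in WT-WD female 2, and the summed level of the skeletal and heart muscle markers was 110 and 32.1 in those libraries. The values of the genes by library are shown as deviations from each gene's mean.

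**Figure D1:**
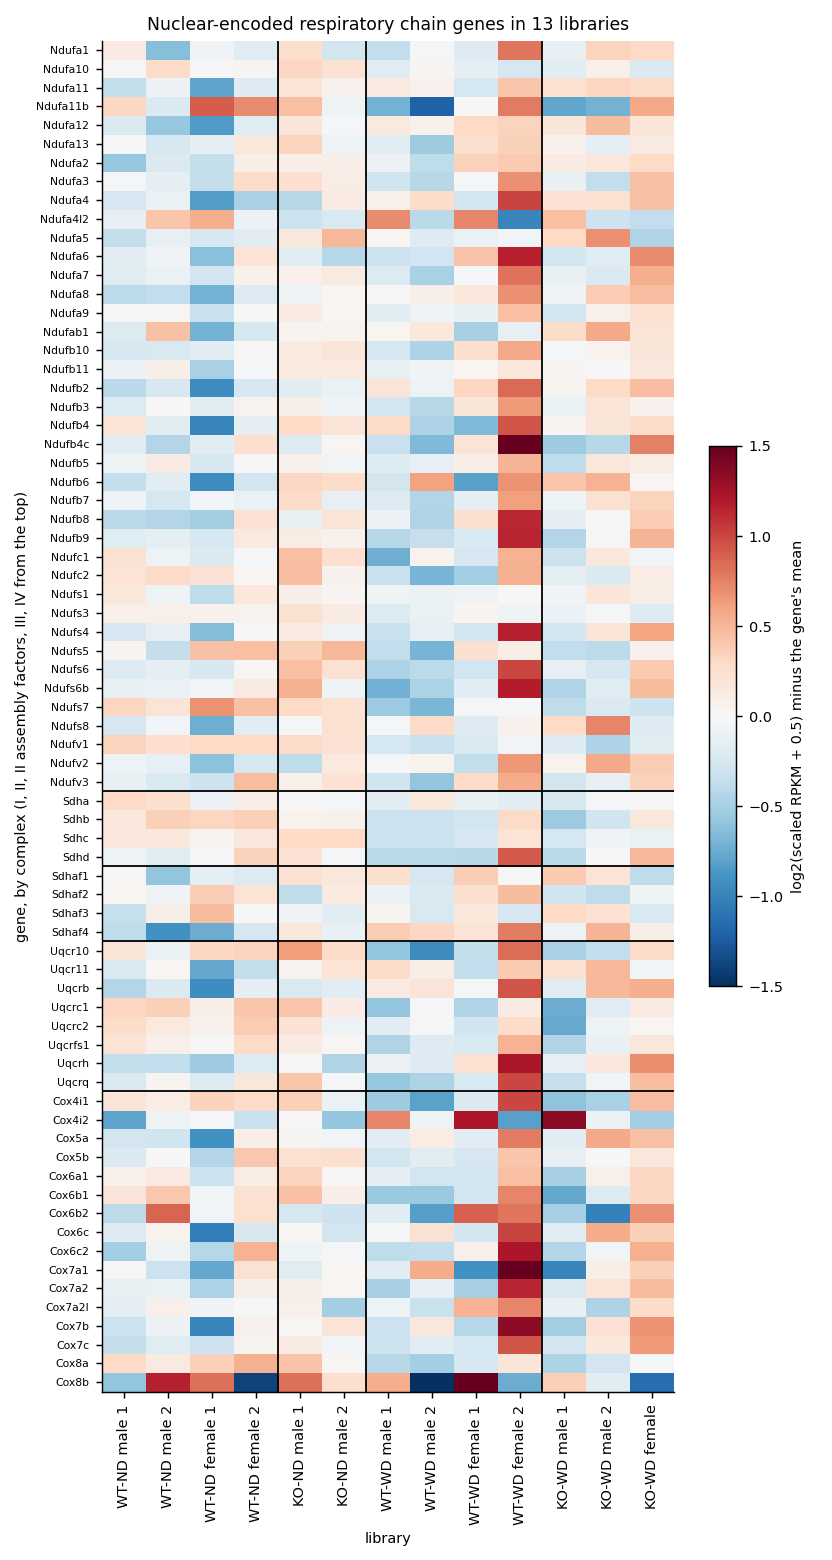
Heat map of the genes (rows, by complex, 1 gene not shown) in the 13 libraries (columns, by group); the color is log2(scaled RPKM + 0.5) minus the mean of that gene over the libraries, cut at 1.5 in either direction. WT-WD female 2 is the column where 47 of the 73 genes were highest, and WT-ND female 1 was lowest for 24.

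4 of the 41 and 16 names in complexes I and IV belong to processed pseudogenes, copies of a spliced mRNA that were written back into the genome: Ndufa11b, Ndufb4c and Ndufs6b for complex I and Cox6c2 for complex IV. They are listed as genes of their own, at levels near to or above the parent gene. Cox6c2 averaged 203 scaled RPKM over the groups and Cox6c, a small subunit of complex IV, 106; Ndufb4c averaged 60.6 and Ndufb4 24.0. Ndufa11b averaged 77.0 and Ndufa11 72.3, and Ndufs6b averaged 67.9 against 79.7 for Ndufs6. The sequences are shown because they bear on how far reads of a copy and its parent can be separated.

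Cox6c2 (chr12:56373593-56373823, minus strand, GRCm38, 231 bases) differed from the coding sequence of Cox6c (chr15:35925886-35938246, minus strand) at 7 of 231 positions, with 145 identical bases in a row. Bases of the copy that differ are in capitals.
Cox6c: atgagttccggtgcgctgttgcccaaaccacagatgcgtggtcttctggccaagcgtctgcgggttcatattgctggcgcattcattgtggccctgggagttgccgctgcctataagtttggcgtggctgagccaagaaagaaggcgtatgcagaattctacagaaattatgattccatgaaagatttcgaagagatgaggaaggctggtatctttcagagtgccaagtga
Cox6c2: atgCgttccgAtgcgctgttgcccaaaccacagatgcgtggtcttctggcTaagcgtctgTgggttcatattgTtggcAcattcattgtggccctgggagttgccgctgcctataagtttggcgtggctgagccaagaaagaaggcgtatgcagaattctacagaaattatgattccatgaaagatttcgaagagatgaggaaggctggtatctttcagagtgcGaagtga

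Ndufa11b (chr16:22053510-22053933, plus strand) was 94.8% identical to the coding sequence of Ndufa11 (chr17:56717767-56722141, plus strand), a subunit at the interface of the membrane and matrix arms. The stretch from position 142 to 381 of the alignment, which holds 13 of the 22 differences, is shown, with the differing bases of the copy in capitals.
Ndufa11: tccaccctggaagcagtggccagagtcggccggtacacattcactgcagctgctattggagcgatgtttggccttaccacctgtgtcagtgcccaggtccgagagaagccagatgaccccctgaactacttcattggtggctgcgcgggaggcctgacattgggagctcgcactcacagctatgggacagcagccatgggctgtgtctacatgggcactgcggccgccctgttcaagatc
Ndufa11b: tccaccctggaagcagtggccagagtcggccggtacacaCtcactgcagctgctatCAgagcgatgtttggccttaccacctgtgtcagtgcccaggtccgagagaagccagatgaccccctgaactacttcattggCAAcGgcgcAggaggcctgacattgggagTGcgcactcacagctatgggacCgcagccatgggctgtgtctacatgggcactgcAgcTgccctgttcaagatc

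Ndufb4c (chr15:73809507-73809896, minus strand) matched the whole 390-base coding sequence of Ndufb4 (chr16:37647170-37654453, minus strand) with 0 differences, so 1 stretch stands for both.
Ndufb4 and Ndufb4c: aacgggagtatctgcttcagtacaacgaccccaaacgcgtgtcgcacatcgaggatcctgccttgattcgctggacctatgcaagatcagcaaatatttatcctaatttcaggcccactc

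Ndufs6b (chr7:81161397-81161744, minus strand) was 96.5% identical to Ndufs6 over 347 positions. Reads from coding sequence could not be told apart for Ndufb4 and Ndufb4c, and were hard to separate for the other pairs, so the levels of these 8 genes are uncertain as a split between copy and parent. Among the 8 Tas1r3+/+ libraries, all 4 copies were lower in males than in females, with a median log2 difference of -0.79, and the comparison of the sexes is given below.

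The first comparison asked what the WD did in the presence of the receptor. No gene of the respiratory chain passed the test between WT-WD and WT-ND (limma, adjusted p under 0.05 over all genes), where 0.063% of all genes tested did. At an unadjusted p under 0.05 there were 13 of the 73, 8 higher and 5 lower on the WD, against 15.6% of all genes tested. The groups did not overlap for 9 of the 73 genes (12.3%), against 10.6% of all genes tested. The median difference was 0.11 over the 73 genes and 0.03 over all genes, and 44 of the 73 were higher on the WD.

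That median turned on 1 library: without WT-WD female 2 it was -0.07, with 30 genes higher and 43 lower, and in males alone it was -0.16, with 25 higher. By complex, the medians were 0.12 for complex I (29 of 41 higher), -0.26 for complex II (0 of 4 higher), -0.12 for complex III (3 of 8) and 0.20 for complex IV (10 of 16). Without WT-WD female 2 they were -0.02, -0.43, -0.37 and -0.08. In the RPKM as deposited, with no scaling, the median of all genes was -0.38 and that of the 73 genes -0.36, so relative to all genes the 73 moved by 0.02 there.

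A list of 17 core subunits was set apart from the other members: the core subunits of complex I, with Ndufs7 and Ndufv1 among them, the 4 of complex II, Uqcrc1, Uqcrc2 and Uqcrfs1 of complex III, and Cox4i1, Cox5a and Cox5b, which surround the mitochondrially encoded center of complex IV. The 17 are called core subunits here, but the list is not that of the redox subunits. Uqcrc1, Uqcrc2, Cox4i1, Cox5a and Cox5b do no redox work, and Cyc1, the cytochrome c1 of complex III, is not in it. Of the 17 core subunits, 14 were lower on the WD, with a median of -0.21, while 41 of the 56 other members were higher, with a median of 0.14. Without WT-WD female 2 the medians were -0.38 and -0.01, with 13 of the 17 core subunits lower, and in males alone 14 of the 17 were lower, but with protein-coding transcripts alone 10 of the 17 were lower, with a median of -0.16. The transcripts of the core subunits were longer (median 927 against 547 bases) and of like GC content (median 52.2% against 51.9%). These are counts without a test, and no single core subunit passed the test. Beside these values, all 7 adipocyte markers were lower in WT-WD with a median of -2.05, from sums of 30.9 to 255 in WT-ND and 28.6 to 156 in WT-WD. Of the goblet markers 4 of 6 were lower, with a median of -0.65. The enterocyte markers had a median of -0.18 (4 of 11 higher) and the Paneth markers of -0.35 (2 of 6 higher). Among the lists that were higher were B and plasma cell (6 of 6 higher, median 0.60) and endothelium (4 of 5, 0.58). Smooth muscle (6 of 7, 0.39), T cell (6 of 7, 0.35), neuron and glia (6 of 7, 0.32) and macrophage (5 of 6, 0.30) were higher too. The part of these cell types was not tested.

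Sdhaf4, the factor that helps assemble the flavoprotein of complex II (chr1:23995939-24005656, minus strand), had the lowest adjusted p of the 73 genes. It stood at 6.06, 4.05, 4.58 and 6.67 scaled RPKM in the WT-ND libraries, at 10.6, 10.1, 9.31 and 14.1 in WT-WD, at 9.10 and 7.41 in KO-ND and at 7.59, 11.6 and 8.56 in KO-WD. All WT-WD values lay above all WT-ND values, and the KO groups overlapped each other. The difference in Tas1r3+/+ mice was 0.99 ± 0.21 with an adjusted p of 0.0871 by limma, and the two-sided exact permutation p was 0.0286, the smallest that 4 against 4 libraries allow. Without WT-WD female 2 it was 0.87, with an adjusted p of 0.0970.

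The other large differences upward were in accessory subunits. Ndufb2, of the membrane arm of complex I, stood at 39.4, 44.1, 27.0 and 43.8 in WT-ND and at 59.7, 49.5, 65.7 and 94.7 in WT-WD, a difference of 0.78 ± 0.22 (limma adjusted p = 0.141). Uqcrb, a small ubiquinone-binding subunit of complex III, stood at 94.0, 110, 66.9 and 117 in WT-ND and at 140, 147, 127 and 247 in WT-WD, a difference of 0.75 ± 0.25 (limma adjusted p = 0.195). In both, every WD value exceeded every ND value and WT-WD female 2 was the highest. Ndufa12, an accessory subunit of the matrix arm named after its values were seen, stood at 41.5, 32.4, 26.4 and 42.3 in WT-ND against 53.5, 50.2, 59.2 and 60.8 in WT-WD, a difference of 0.66 ± 0.17 (limma adjusted p = 0.125). Ndufa8 and Uqcrh, also with groups that did not overlap, differed by 0.65 and 0.66.

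Downward, the largest values were in the pseudogene Ndufa11b, Ndufs7 and Cox8a. Ndufa11b stood at 87.0, 60.3, 132 and 115 in WT-ND and at 42.6, 30.0, 69.7 and 121 in WT-WD, a difference of -0.72 ± 0.43, and its groups overlapped. Ndufs7, which holds the last iron-sulfur cluster before ubiquinone (chr10:80249121-80256794, plus strand), stood at 109, 99.6, 139 and 118 in WT-ND and at 59.5, 53.8, 85.8 and 87.0 in WT-WD. The groups did not overlap, and the difference was -0.72 ± 0.19 (limma adjusted p = 0.123), but 0.26 with protein-coding transcripts alone, as given below. Ndufv1, which binds NADH and the flavin (chr19:4007497-4012806, minus strand), stood at 148, 140, 144 and 144 in WT-ND and at 97.7, 93.1, 100 and 114 in WT-WD, a difference of -0.51 ± 0.14 (limma adjusted p = 0.129). Its ND values lay within a narrow range, well above every WD value, and this held with WT-WD female 2 included. Cox8a, the smallest subunit of complex IV, stood at 553, 495, 579 and 653 in WT-ND and at 337, 316, 382 and 510 in WT-WD, a difference of -0.58 ± 0.21 (limma adjusted p = 0.226). Only WT-WD female 2 reached the ND range for Cox8a.

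Within complex II, each of the 4 subunits was lower in 3 of the 4 WT-WD libraries than in any WT-ND library. Sdhb, the iron-sulfur protein, stood at 122, 139, 136 and 139 in WT-ND and at 86.3, 86.3, 88.8 and 132 in WT-WD. Sdhc, a membrane anchor, stood at 119, 119, 110 and 120 against 84.9, 85.2, 89.8 and 123. Sdhd, the other anchor, stood at 96.7, 89.8, 99.9 and 130 against 76.9, 77.1, 76.6 and 193. In Sdhb, Sdhc and Sdhd, WT-WD female 2 was within the ND range or above it. Sdha, the flavoprotein, stood at 165, 158, 126 and 144 in WT-ND and at 120, 150, 124 and 120 in WT-WD, where male 2 and not female 2 was within the ND range. Cox4i1 was also high in WT-WD female 2, at 913 to 1071 in WT-ND and at 581, 484, 723 and 1684 in WT-WD (difference -0.37 ± 0.37).

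**Figure D2:**
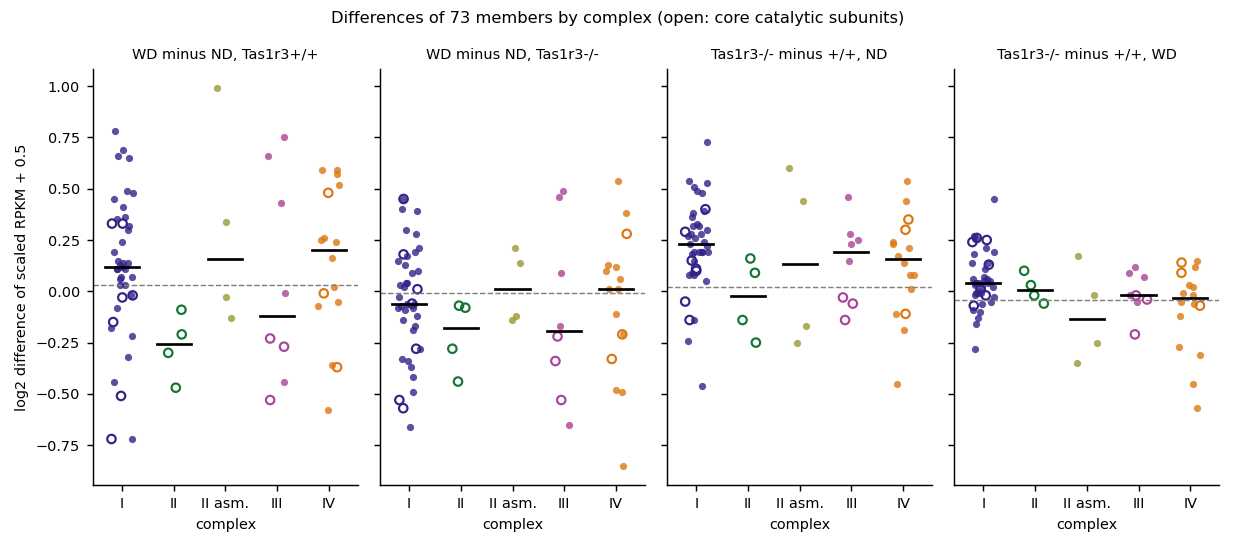
Log2 differences (scaled RPKM + 0.5) of the 73 genes in 4 comparisons, by complex; each point is a gene, open circles are the 17 core subunits, black bars are medians of a complex and the dashed line is the median of all genes tested. In the first panel the 4 complex II subunits are below 0 and the complex I and IV medians are 0.12 and 0.20, and in the third panel 57 of the 73 genes are above 0.

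The 13 subunits encoded by mitochondrial DNA, which share complexes I, III and IV and ATP synthase with nuclear-encoded partners, differed from the nuclear genes on the WD. All 13 were higher in WT-WD than in WT-ND, with a median difference of 1.08, and 12 had an unadjusted p under 0.05, but 0 passed the test; the lowest adjusted p was 0.0613, for mt-Nd3 (309 scaled RPKM in WT-ND and 903 in WT-WD). All 13 were also higher in KO-WD than in KO-ND, with a median of 0.98 and adjusted p-values from limma of at least 0.795. Without WT-WD female 2 the median in Tas1r3+/+ mice was 0.94, and in males alone it was 0.65, in both with 13 of 13 higher, and in the RPKM as deposited the medians were 0.61 and 0.59 in the 2 genotypes.

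The summed level of the 13 mitochondrial genes was 3.14, 2.86, 2.25 and 3.26 times that of the 73 nuclear genes in WT-ND and 2.83 and 2.44 times in KO-ND. On the WD this ratio was 5.92, 4.85, 7.95 and 4.92 in WT-WD and 5.92, 5.54 and 5.06 in KO-WD. The ratio, which does not depend on the scaling between libraries, was higher in every WD library than in every ND library of either genotype. WT-WD female 2, the library with the highest nuclear sum, had a ratio of 4.92, within the range of the others. The mitochondrial transcripts had a median GC content of 37.1%, below that of every one of the 73 nuclear genes (41.9% to 60.8%), and GC content moved with diet over all genes, as given below.

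**Figure D3:**
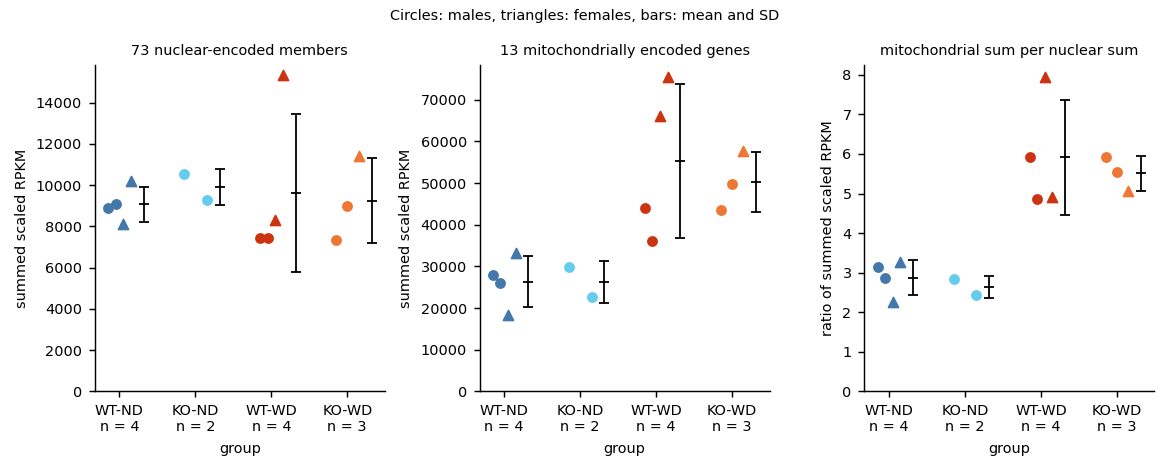
Summed scaled RPKM of the 73 nuclear genes (left) and of the 13 mitochondrially encoded genes (middle) and their ratio (right) by group; circles are males, triangles females, and bars the mean and SD. The nuclear sums overlap between groups, whereas the ratio was 2.25 to 3.26 in the 6 ND libraries and 4.85 to 7.95 in the 7 WD libraries.

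In Tas1r3-/- mice the WD was compared with the ND in 3 against 2 libraries, where the smallest exact permutation p is 0.1. No gene of the 73 passed the test, and 0.00525% of all genes tested did. 3 of the 73, Ndufv1, Ndufs7 and Sdhc, had an unadjusted p under 0.05 and were lower on the WD, against 5.65% of all genes tested. The groups did not overlap for 16 of the 73 genes (21.9%), 7 of them higher, against 20.9% of all genes tested. The median was -0.06, with 33 of the 73 higher, and -0.01 over all genes; in the RPKM as deposited these were -0.45 and -0.35.

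By complex, the medians were -0.06 for complex I, -0.18 for complex II (0 of 4 higher), -0.19 for complex III and 0.01 for complex IV, and in males alone that of complex IV was -0.28 (3 of 16 higher). Of the 17 core subunits, 13 were lower on the WD, with a median of -0.22, and of the 56 others 27 were lower, with a median of 0.01. Ndufv1 stood at 143 and 136 in KO-ND and at 102, 85.0 and 103 in KO-WD, a difference of -0.53 ± 0.18 (limma adjusted p = 0.813). Ndufs7 stood at 107 and 102 in KO-ND and at 66.5, 74.7 and 70.0 in KO-WD, a difference of -0.57 ± 0.24. Both genes had no overlap between diets here either. These libraries are not shared with the comparison in Tas1r3+/+ mice, but their summed RPKM split by diet in the same direction. Sdhc stood at 131 and 131 against 88.4, 102 and 99.8. Every KO-WD value of Sdhc was below both KO-ND values, and the difference was -0.44 ± 0.20.

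Among the largest values by size were Ndufs5, an accessory subunit on the intermembrane side (-0.66 ± 0.31), Uqcr10 (-0.65) and the low-level Cox8b (-0.85 ± 0.93). Upward, the largest were Cox4i2 (0.54), Uqcrb (0.49 ± 0.33) and Uqcrh (0.46), all with adjusted p-values near 1 by limma. Cox4i2 rested on KO-WD male 1, at 5.62 scaled RPKM against 1.77 and 1.18 in the other KO-WD libraries and 1.90 and 1.11 in KO-ND. Without that library its difference was -0.01.

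The next comparisons asked what loss of the receptor did on each diet, and the ND comparison shares its WT-ND libraries with the diet comparison above. On the ND, 0 of the 73 genes passed the test, and 0.00525% of all genes tested did. 2 of the 73, Ndufa12 and Sdhaf4, had an unadjusted p under 0.05, both higher in KO-ND, against 4.83% of all genes tested. The groups did not overlap for 20 of the 73 (27.4%), 18 of them higher in KO-ND, against 22.4% of all genes tested. The median was 0.19 with 57 of the 73 higher (78.1%), against 0.02 and 51.5% for all genes, and in males alone, 2 against 2 libraries, it was 0.17 with 57 higher. Both KO-ND libraries are males, and with sex as a covariate the median was 0.32 with 65 of 73 higher. The sex term of that fit came from the other groups, with WT-WD female 2 (a sum of 15328 scaled RPKM) among them. In WT-ND the 73 genes summed to 8880 and 9088 in males and to 8141 and 10185 in females. In the RPKM as deposited the median was 0.02, with 41 of the 73 higher, against -0.14 for all genes.

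Complex I carried most of the count, with 36 of 41 genes higher in KO-ND and a median of 0.23, followed by complex IV with 12 of 16 and a median of 0.15. Complex II did not share it, with 2 of 4 higher and a median of -0.03. Ndufb6, an accessory subunit of the membrane arm, stood at 39.3, 45.3, 25.9 and 41.5 in WT-ND and at 62.5 and 61.3 in KO-ND, a difference of 0.73 ± 0.38 (limma adjusted p = 0.891). Ndufa5, of the matrix arm, stood at 34.6, 40.6, 37.5 and 39.8 against 49.5 and 62.6, a difference of 0.54 ± 0.26. Both KO-ND values lay above all WT-ND values in these genes, and each exact permutation p was 0.0667, the smallest that 2 against 4 libraries allow. For Ndufa12 the KO-ND values were 54.5 and 47.0 and the difference 0.53 ± 0.21, and for Sdhaf4 the difference was 0.60 ± 0.25. The largest values downward were Ndufa4l2 (-0.46 ± 0.46), Cox6b2 (-0.45 ± 0.53), Sdhb (-0.25 ± 0.24) and Sdhaf2 (-0.25 ± 0.24).

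Cell markers also differed between these groups. The 12 enterocyte markers summed to 10908 to 17016 scaled RPKM in WT-ND and to 7167 and 7714 in KO-ND, all 11 tested were lower in KO-ND with a median of -0.97, and Lct was near 0. The 6 Paneth cell markers, all higher in KO-ND with a median of 1.17, summed to 9343 to 27451 in WT-ND and to 51474 and 25401 in KO-ND. The 7 smooth muscle markers were all higher in KO-ND with a median of 0.62, from sums of 1141 to 3543 and of 3915 and 2019. No gene of these lists passed the test, and their part in the values of the respiratory chain genes was not tested.

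On the WD, 0 of the 73 genes passed the test between KO-WD and WT-WD, and 0.0263% of all genes tested did. At an unadjusted p under 0.05 there were 0 of 73, against 2.62% of all genes tested, and 1 gene (1.37%) had groups that did not overlap, against 2.88%. That gene was Ndufab1, the mitochondrial acyl carrier protein, at 14.9, 16.3, 10.2 and 13.4 in WT-WD and at 17.8, 21.9 and 16.7 in KO-WD, a difference of 0.45 ± 0.25 (limma adjusted p = 1). Every KO-WD value of Ndufab1 exceeded every WT-WD value, by a margin smaller than the spread within WT-WD. The muscle isoform Cox7a1 had the largest difference downward, -0.57 ± 0.56, with WT-WD at 16.1, 26.8, 9.39 and 76.3 and KO-WD at 8.82, 19.3 and 23.2.

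Over the 73 genes the median was 0.02, with 38 higher, against -0.04 for all genes. Without WT-WD female 2 it was 0.20 with 59 of 73 higher, of which complex I gave 37 of 41 with a median of 0.23, and in males alone it was 0.17 with 61 of 73 higher. In the RPKM as deposited the median was -0.07 with 20 of 73 higher, against -0.12 for all genes, and under upper quartile scaling 52 were higher. This comparison shares its WT-WD libraries with the diet comparison in Tas1r3+/+ mice. All 11 enterocyte markers tested were lower in KO-WD with a median of -0.71, from sums of 7128 to 25986 in WT-WD and 1958 to 16876 in KO-WD, and all 6 Paneth markers higher with a median of 1.05. All 6 macrophage markers were lower with a median of -0.63, from sums of 93.2 to 172 in WT-WD and 58.3 to 124 in KO-WD, all 7 T cell markers were lower with -0.36 and all 7 smooth muscle markers higher with 0.30. None passed the test, and their part was not tested.

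The interaction, the diet difference in Tas1r3-/- mice minus that in Tas1r3+/+ mice, passed the test for 0 of the 73 genes and for 0% of all genes tested. 1 of the 73 had an unadjusted p under 0.05, against 1.43% of all genes tested: Sdhaf4, with a diet difference of 0.99 in Tas1r3+/+ and 0.14 in Tas1r3-/- mice and an interaction of -0.85 ± 0.34 (limma adjusted p = 1). The median over the 73 was -0.18 with 16 higher, and without WT-WD female 2 it was 0.03 with 40 higher.

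The sexes were compared in the 8 Tas1r3+/+ libraries, with diet in the model, and 0 of the 73 genes passed the test, against 0.042% of all genes tested. At an unadjusted p under 0.05 there were 10 of the 73, 8 lower and 2 higher in males, against 12.1% of all genes tested. The median difference was -0.20 with 58 of the 73 lower in males, against -0.03 for all genes, and in the RPKM as deposited it was -0.14. WT-WD female 2 is among the females, and the fit was not repeated without it. The median level of the 73 genes in WT-ND was 82.7 and 86.6 scaled RPKM in males and 68 and 88.9 in females. In WT-WD it was 75.7 and 77.1 in males, 76.6 in female 1 and 132 in female 2, so only female 2 lay well above the males there. Cell markers also differed by sex: all 7 adipocyte markers were lower in males with a median of -1.19 and 6 of 7 T cell markers with -0.96, while all 6 Paneth markers were higher with 0.66 and 7 of 8 crypt markers with 0.68. None of these markers passed the test, and their part was not tested. Ndufs5 stood at 52.9, 40.1, 69.8 and 70.4 in WT-ND male 1, male 2, female 1 and female 2 and at 39.9, 31.7, 61.2 and 55.4 in WT-WD. On each diet both males were below both females, the difference was -0.65 ± 0.15 (limma adjusted p = 0.238), and the exact permutation p was 0.0286. The pseudogene Ndufa11b had the largest difference, -1.06 ± 0.25, while its parent Ndufa11 stood at 53.8, 64.9, 39.7 and 60.2 in WT-ND and 75.7, 72.3, 57.6 and 92.3 in WT-WD, where the sexes overlapped.

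Diet differences moved with the base composition of the transcripts in both genotypes. Over 10729 genes with a mean RPKM of at least 5, the correlation between GC content and the diet difference was r = -0.40 in Tas1r3+/+ and -0.41 in Tas1r3-/- mice, and over the 73 genes it was -0.28 and -0.34; genes are not independent replicates, all points share the same libraries, and no p is given. For the genotype differences on the ND and the WD it was 0.01 and 0.08 over the 10729 genes and -0.08 and -0.11 over the 73. From the lowest to the highest GC class, the median of all genes ran from 0.34 to -0.30 in Tas1r3+/+ and from 0.34 to -0.22 in Tas1r3-/- mice. The class medians of the 73 genes did not step down in this way in Tas1r3+/+ mice. They were -0.02 (3 genes), 0.16, 0.31, -0.01 and 0.02 (14 genes) from the lowest to the highest class. Single genes lay far from these medians. Ndufs7 (59.0% GC), Cox8a (58.6%) and Ndufv1 (56.4%), the large values downward, lay in the highest class, and Uqcrb (41.9%) and Sdhaf4 (45.8%) in the low classes, whereas Ndufb2 (53.4%) and Ndufa8 (54.4%) were high in a class whose median was -0.20. When the medians of 20 GC classes were set equal between libraries, the median of the 73 genes was 0.20 in Tas1r3+/+ and 0.00 in Tas1r3-/- mice, Ndufs7 went from -0.72 to -0.44 and Sdhaf4 from 0.99 to 0.85.

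**Figure D4:**
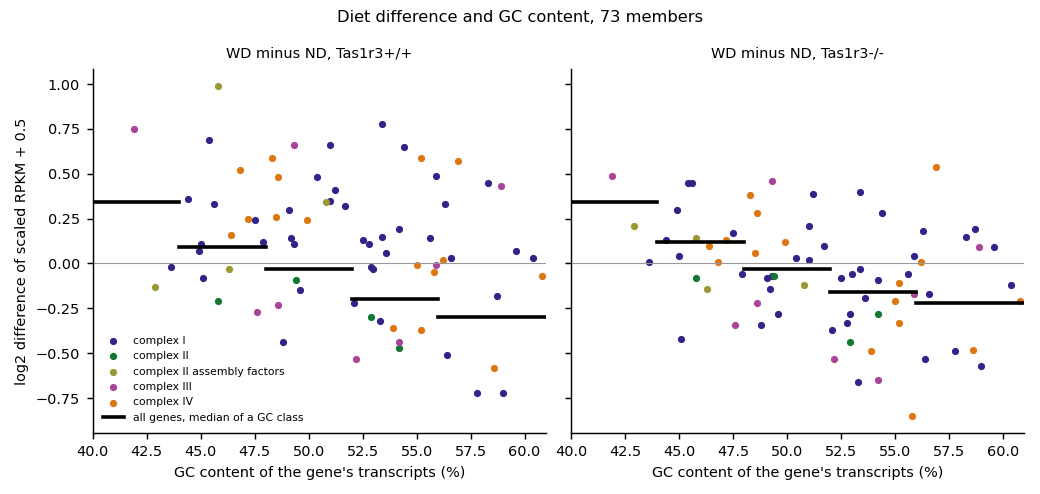
Diet difference (log2 of scaled RPKM + 0.5, WD minus ND) of the 73 genes against the GC content of their transcripts in Tas1r3+/+ (left) and Tas1r3-/- mice (right), colored by complex; black bars are the medians of all genes of a GC class with a mean RPKM of at least 5. The bars step down from 0.34 to -0.30 and from 0.34 to -0.22. The medians of the 73 genes in the same classes are not drawn. From the lowest GC class they were -0.02, 0.16, 0.31, -0.01 and 0.02 (left) and 0.21, 0.10, 0.02, -0.21 and -0.05 (right).

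The values are given per transcript, and the fit was repeated on 43552 transcripts, 235 of them from the 73 genes, an analysis added when the gene values had been seen. Retained-intron transcripts, in which an intron is left in and which mostly cannot give the full protein, made up 25.6% of the RPKM of the 73 genes in WT-ND, 23.4% in KO-ND, 22.6% in WT-WD and 21.9% in KO-WD, and protein-coding transcripts made up 56.3%, 57.4%, 58.2% and 59.1%. In other protein-coding genes the retained-intron share was 15.7% in WT-ND and 13.3% in WT-WD. In Tas1r3+/+ mice 4 of the 235 transcripts passed the test for diet, against 0.471% of all transcripts tested, and in Tas1r3-/- mice 0 did, against 0.0184%.

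Ndufb10-205, a retained-intron form of a membrane arm subunit, rose on the WD, from 9.25, 6.89, 3.34 and 3.52 scaled RPKM in WT-ND to 30.9, 38.0, 74.8 and 38.2 in WT-WD. It stood at 28.6 and 17.9 in KO-ND and at 70.8, 75.4 and 51.2 in KO-WD, so WT-ND was below every other group. The rise was 2.91 ± 0.35 (limma adjusted p = 0.00579), it kept its call in 13 of 13 fits that each left out 1 library, and it made up 1.32% to 4.25% of the gene in WT-ND and 9.85% to 24.0% in WT-WD. The whole gene Ndufb10 overlapped between WT-ND and WT-WD, at 218 to 266 and 190 to 388. In Tas1r3-/- mice the difference was 1.5 (adjusted p = 0.565), and between genotypes on the ND it was 2.01 ± 0.43 (adjusted p = 0.527). Uqcrh-204, a processed transcript of the complex III hinge protein, rose by 2.17 ± 0.38 (limma adjusted p = 0.0316), from 0.0765 to 1.41 in WT-ND to 2.52 to 5.32 in WT-WD, and made up at most 1.57% of its gene.

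Ndufs7-205, a retained-intron form, fell on the WD. It stood at 33.3, 33.9, 65.5 and 47.1 scaled RPKM in WT-ND and at 0.00651, 2.36, 7.62 and 8.45 in WT-WD, with 35.9 and 22.2 in KO-ND and 2.08, 4.13 and 4.46 in KO-WD. Every WD library was below every ND library, whichever the genotype. The difference was -3.77 ± 0.72 (limma adjusted p = 0.0425), which 4 of 13 fits without 1 library kept, and -2.88 in Tas1r3-/- mice (adjusted p = 0.584). Its share of the gene went from 30.5% to 47.2% in WT-ND to 0.0109% to 9.71% in WT-WD. With protein-coding transcripts alone the difference of Ndufs7 was 0.26 in place of -0.72, and the lower value of the whole gene lay in forms that are not annotated as protein-coding.

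The border of the intron that Ndufs7-205 keeps (chr10:80253754-80253813, plus strand, GRCm38) is shown because this form carried the gene's difference. The transcript holds 158 bases of a 1056-base intron, and the intron is in capitals, starting with GT.
Ndufs7-205: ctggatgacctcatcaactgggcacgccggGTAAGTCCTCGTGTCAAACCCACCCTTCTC

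Cox6a1-202, the form with the same feature in the second most abundant gene of the 73, keeps the whole of a 131-base intron that is 80.2% GC. It made up 60.7%, 51.6%, 78.1% and 62.4% of its gene in WT-ND and 18.9%, 20.5%, 51.0% and 66.7% in WT-WD, and 76.3% and 43.2% in KO-ND against 24.8%, 20.6% and 48.8% in KO-WD. The 4 WD males were below every ND library, the WD females were at 48.8% to 66.7%, within the ND range, and the difference in Tas1r3+/+ mice was -0.95 (limma adjusted p = 0.434). Its border (chr5:115348809-115348868, minus strand) is shown for comparison, with the intron in capitals.
Cox6a1-202: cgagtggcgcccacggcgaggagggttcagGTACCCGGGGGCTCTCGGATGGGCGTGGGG

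Ndufs8-201, a protein-coding form of the core subunit Ndufs8, also fell on the WD, from 9.77, 8.92, 10.4 and 6.21 in WT-ND to 2.56, 1.58, 3.40 and 3.99 in WT-WD. The difference was -1.5 ± 0.28 (limma adjusted p = 0.0425), which 2 of 13 fits without 1 library kept. The main form, Ndufs8-205, was higher on the WD by 0.56 (adjusted p = 0.353), and the gene as a whole by 0.33. All 4 transcripts kept their call without WT-WD female 2, with adjusted p-values of 0.0115 to 0.0403. How the quantification divided reads among overlapping forms of a gene bears on each of these values and was not tested.

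**Figure D5:**
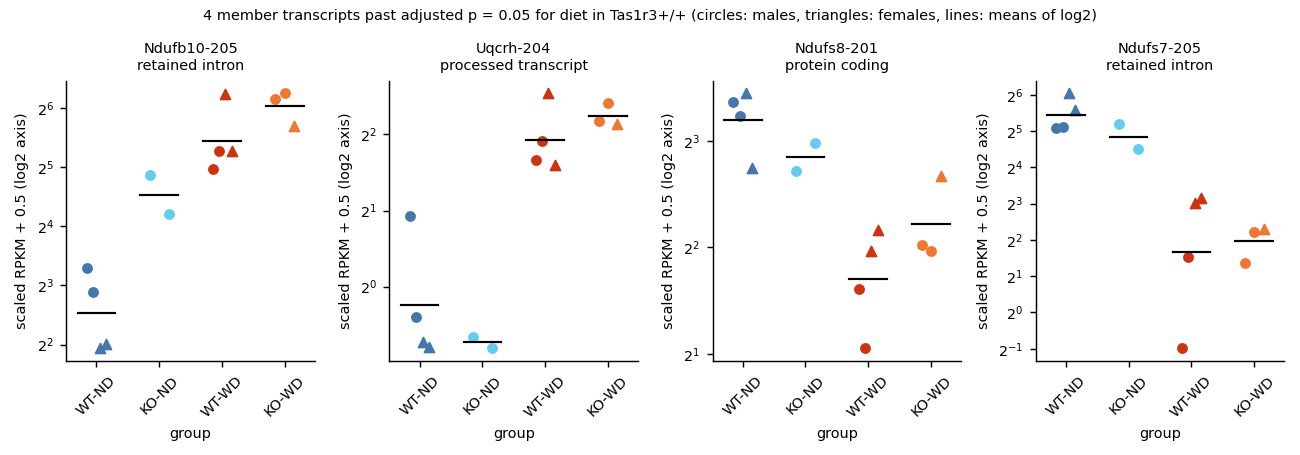
Scaled RPKM + 0.5 (log2 axis) of the 4 transcripts past the test for diet in Tas1r3+/+ mice, by group; circles are males, triangles females, and lines the means of the log2 values. Ndufb10-205 and Uqcrh-204 are higher and Ndufs7-205 and Ndufs8-201 lower in all 4 WT-WD libraries than in all 4 WT-ND libraries.

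Promoters of respiratory genes are known for sites of NRF1, ETS factors such as GABP, YY1 and ERR proteins. The windows from 250 bases before to 50 after the gene start were searched on both strands (RefSeq, GRCm38.p6). Promoters on 1 chromosome were left out, and 57 of the 73 genes had a promoter among those searched. CGCATGCG, the NRF1 core, was present in 5 (8.77%), against 2.07% of 27025 genes with a promoter searched. AAGATGGC, for YY1, was present in 7 (12.3%), against 3.19%. CCGGAAGT, for ETS factors, was present in 4 (7.02%), against 4.31%, and CAAGGTCA, for ERR, in 2 (3.51%), against 1.76%. Ndufs7 was among the 7 with AAGATGGC, Ndufa8 and Uqcrc1 among the 5 with CGCATGCG, and Cox8a, Ndufs3 and Uqcrh among the 4 with CCGGAAGT. In all, 17 of the 57 (29.8%) had at least 1 of the letters sought, against 10.7% of all genes with a promoter searched.

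The lists of genes that act with the respiratory chain had medians of the same small size, while some single genes differed more. None of those in the lists below passed the test in any of these comparisons. The 17 ATP synthase genes had medians of 0.08 for diet in Tas1r3+/+, -0.11 for diet in Tas1r3-/- and 0.16 for genotype on the ND, where 14 were higher. The 41 assembly factors, which take in Sdhaf1, Sdhaf2, Sdhaf3 and Sdhaf4, had -0.05, -0.14 and 0.05, and the 14 genes of the TCA cycle -0.11, -0.07 and -0.04. Single assembly factors ran from -1.40 (Sco2) to 0.99 (Sdhaf4) for diet in Tas1r3+/+ mice. For genotype on the ND they ran from -1.17 (Sco2) to 0.99 (Cox18). Of the 14 regulators of mitochondrial gene expression, 5 were higher and 9 lower on the WD in Tas1r3+/+ mice, among them Ppargc1a, a coactivator of mitochondrial biogenesis (-0.07), Esrra, a nuclear receptor of oxidative genes (-0.55, limma adjusted p = 0.433), and Tfam, which packs and transcribes mitochondrial DNA (0.50, limma adjusted p = 0.324). The lowest adjusted p of these regulators in that comparison was that of Twnk (-0.61, limma adjusted p = 0.133). Cyc1, the cytochrome c1 of complex III, differed by -0.39 and Cycs, cytochrome c itself, by 0.05.

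Most ribosomal protein genes, like most respiratory chain genes, were higher in KO-ND than in WT-ND, though none passed the test. On the ND, 68 of 78 mitochondrial ribosomal protein genes were higher in KO-ND, with a median of 0.19, and 89 of 99 cytosolic ones, with a median of 0.29. On the WD, 63 and 79 were higher in KO-WD, with medians of 0.12 and 0.11, and in the RPKM as deposited 44 and 73 were higher on the ND and 40 and 56 on the WD. Over the 10729 genes the genotype difference on the ND had a correlation of r = -0.31 with log2 length, and over the 73 genes r = -0.27, and the lengths of the ribosomal protein genes were not compared.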

How the data were processed

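Per the study's methods, mRNA was first isolated from total RNA of the ileum, then depleted of ribosomal RNA and sequenced on an Ion Proton. Per the labels and the study's methods, the authors aligned reads to GRCm38/mm10 with STAR 2.5.3a and quantified Ensembl Transcripts release 91 in Partek Flow. The values deposited by the authors are RPKM per transcript; the name RPKM comes from the paper's supplement, and its library total is not given in the sources used here. RPKM were summed per gene and divided by library factors of the TMM kind (trims of 30% for ratios and 5% for levels). They were tested as log2(scaled RPKM + 0.5) with limma 3.58.1 (R 4.3.3, trend, 4 groups in 1 model, Benjamini-Hochberg). Exact permutation tests were two-sided. Python 3.11.15, numpy 2.4.6, pandas 2.3.3 and Biopython 1.88 were used. Among low values of genes with 1 transcript, about 87% came out as whole reads within 0.02 of a read, so no count test was run. GC content, lengths and transcript classes come from GENCODE M21, matched for 98.21% of transcripts. 15 alternatives were planned and 3 were added after seeing the data. The fit was tested on simulated data. The members and lists were chosen with earlier results of these data known. Named genes were those past the test, the 3 largest differences in each direction per comparison, the highest and lowest of each complex, the 17 core subunits and the tissue isoforms, of which 1 gene is counted in the sums and lists but not reported by itself here; Ndufa12, Ndufa8, Ndufb10, the pseudogenes other than Ndufa11b, their parent genes and single transcripts were named after their values were seen.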

Additional observations from a re-analysis of the deposited data

Results flagged for a closer look

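In groups of 4 libraries, a library was singled out when its gap to the nearest other library divided by the group's whole range exceeded Dixon's critical value, which chance alone gives in about 1 in 20 groups. WT-WD female 2 was singled out as the highest for the median level of the 73 genes (0.967 of the range). The same held for the medians of complex II (0.895), complex III (0.850) and complex IV (0.847). Among single genes it was past the limit as the highest for 8 of the 73, from complexes I, II and IV. Sdhb (0.934), Sdhc (0.851) and Sdhd (0.993) were among these 8. Sdha was highest in WT-WD male 2 (0.836). In WT-ND, the genes past the limit included Ndufb8, highest in female 2 (0.842), Sdhb, lowest in male 1 (0.836), and Sdhc, lowest in female 1 (0.834). Of the 73 genes, 8.22% were past the limit in WT-ND and 12.3% in WT-WD, against 5.6% and 4.75% of all genes tested.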

How the results depend on the processing

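The 15 planned and 3 added alternatives left the group of 73 genes with 0 passing the test in all fits that left out 1 library. In the RPKM as deposited, the median of the 73 genes was -0.36 for diet in Tas1r3+/+ and -0.45 in Tas1r3-/- mice, and 16 genes passed the test in Tas1r3+/+ mice, beside 18.1% of all genes tested, with all genes shifted by -0.38 and -0.35. With a mean RPKM of at least 5 there was 1 (Sdhaf4), beside 0.66% of all genes, and with all 16 columns as labelled there were 5 in Tas1r3+/+ and 1 in Tas1r3-/- mice, beside 3.28% and 1.86% of all genes, a setting that counts the derived columns as libraries. The 14 same-numbered pairs of libraries had correlations of -0.15 to 0.57, 7 of them over 0.1. Values of differently numbered pairs are not given here, so these do not settle whether replicate numbers pair the libraries. The main fit used no pairing. With the replicate block, without the averaged KO-WD female, 2 genes passed in Tas1r3+/+ mice (Ndufs7 and Sdhaf4). This was beside 1.31% of all genes, against 0.063% without the block. Leaving out 1 library moved the median from -0.07 (without WT-WD female 2) to 0.20 for diet in Tas1r3+/+ and from -0.15 to 0.02 in Tas1r3-/- mice. The genotype median ran from 0.13 to 0.25 on the ND and from -0.11 to 0.20 on the WD, and the interaction from -0.28 to 0.03. 4 single values reversed: Cox4i2 for diet in Tas1r3-/- mice (-0.01 without KO-WD male 1, up to 0.92 without the KO-WD female), and with protein-coding transcripts alone Ndufs7 for diet in Tas1r3+/+ mice (0.26) and Ndufa4l2 on the ND (0.21) and in the interaction (-0.45). The cause of these changes was not tested. With 2 to 4 libraries a group, precision is limited, and intervals for counting error were not available from RPKM.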
